A study of Homo sapiens with 6 samples.

Results

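The MHC class I antigen presentation genes examined here were HLA-B, HLA-C, HLA-E, HLA-F, B2M, TAP1, TAP2, TAPBP and NLRC5, chosen by name. They are 9 of the 16500 distinct gene names in the deposited files. Each was looked up in the lists of genes with an H3K4me3 peak and in the pair of promoter tables, split by N-Myc binding. H3K4me3, trimethylation of lysine 4 on histone H3, marks active and poised promoters. It was measured by chromatin immunoprecipitation and sequencing in BE(2)-C, an established human neuroblastoma cell line with amplified MYCN. One H3K4me3 library came from cells given a control siRNA and 1 from cells given WDR5 siRNA-1, both for 24 hours. WDR5 is a shared subunit of the H3K4 methyltransferase complexes. Libraries with IgG (2) and input DNA (2) were also made and were not used here.

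MHC class I molecules carry short peptides from inside the cell to its surface, where CD8+ T cells and natural killer cells read them. A heavy chain (HLA-B, HLA-C and the less variable HLA-E and HLA-F) pairs with the light chain beta-2-microglobulin, the product of B2M. TAP1 and TAP2 form the pump that moves peptides into the endoplasmic reticulum, and tapasin, the product of TAPBP, holds the empty heavy chain beside it. NLRC5 is the transactivator that binds class I promoters through factors on the X and Y elements. Neuroblastoma is known for low surface class I, and interferon-gamma is known to raise it.

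Of the 9 genes, 7 had at least 1 promoter in the RefSeq sequence table used here, and the missing entries were HLA-E and NLRC5. The 250 bases upstream of the RefSeq start on GRCh38.p14 are shown for 6 of them, because 2 of these (HLA-B and HLA-F) carried no peak call and 4 (HLA-C, B2M, TAP1 and TAPBP) did. Capitals mark matches, on either strand, to 5 motifs. They were the NF-kappaB consensus, GAAANNGAAA (the tandem half-sites of an interferon-stimulated response element), GAAGTGAAA (its shorter form in HLA genes), TGACGC (the CRE-like X2 element) and ATTGG (an inverted CCAAT, the Y element). The sequences read 5′ to 3′ on the gene's strand.
HLA-B: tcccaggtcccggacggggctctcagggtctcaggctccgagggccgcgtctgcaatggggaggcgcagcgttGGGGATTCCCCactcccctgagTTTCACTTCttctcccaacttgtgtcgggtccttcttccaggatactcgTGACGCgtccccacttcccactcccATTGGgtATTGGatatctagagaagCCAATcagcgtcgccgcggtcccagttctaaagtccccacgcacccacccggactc
HLA-C: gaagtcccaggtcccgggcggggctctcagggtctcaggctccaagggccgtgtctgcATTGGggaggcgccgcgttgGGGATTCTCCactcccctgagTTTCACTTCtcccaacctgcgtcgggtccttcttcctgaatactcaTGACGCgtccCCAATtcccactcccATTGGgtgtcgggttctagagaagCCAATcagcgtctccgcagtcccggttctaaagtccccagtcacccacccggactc
HLA-F: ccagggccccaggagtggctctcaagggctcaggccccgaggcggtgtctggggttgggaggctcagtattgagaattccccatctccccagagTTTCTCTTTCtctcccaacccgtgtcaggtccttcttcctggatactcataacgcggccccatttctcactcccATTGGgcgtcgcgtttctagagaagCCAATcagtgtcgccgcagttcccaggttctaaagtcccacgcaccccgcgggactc
B2M: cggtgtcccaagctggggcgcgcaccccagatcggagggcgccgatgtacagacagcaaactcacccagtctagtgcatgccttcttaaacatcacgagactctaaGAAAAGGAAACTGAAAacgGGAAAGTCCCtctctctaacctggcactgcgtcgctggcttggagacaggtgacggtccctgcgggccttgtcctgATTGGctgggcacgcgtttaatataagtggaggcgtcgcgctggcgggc
TAP1: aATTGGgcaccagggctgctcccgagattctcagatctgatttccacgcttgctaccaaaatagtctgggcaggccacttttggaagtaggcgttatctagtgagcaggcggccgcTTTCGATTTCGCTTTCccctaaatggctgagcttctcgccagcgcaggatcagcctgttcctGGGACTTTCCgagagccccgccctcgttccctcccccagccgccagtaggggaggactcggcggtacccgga
TAPBP: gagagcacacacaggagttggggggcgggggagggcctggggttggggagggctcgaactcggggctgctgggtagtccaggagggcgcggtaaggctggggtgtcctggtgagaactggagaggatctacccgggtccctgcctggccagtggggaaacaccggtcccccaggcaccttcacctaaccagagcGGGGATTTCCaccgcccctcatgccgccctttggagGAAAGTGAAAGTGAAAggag
These windows lie at chr6:31357180-31357429 (minus strand) for HLA-B, chr6:31272093-31272342 (minus) for HLA-C and chr6:29723184-29723433 (plus) for HLA-F. Those of B2M, TAP1 and TAPBP lie at chr15:44711267-44711516 (plus), chr6:32853705-32853954 (minus) and chr6:33314079-33314328 (minus). The start sites of the deposited tables are on hg19 and were not mapped to this build, so the authors' start may differ from the one used for a window. TAP1 has a further RefSeq start, whose window held no match to any of these motifs.

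Peak calls did not differ between the siRNAs for any of the 9 genes. HLA-C, HLA-E, B2M, TAP1, TAP2 and TAPBP were each listed with control siRNA and again with WDR5 siRNA-1. HLA-B, HLA-F and NLRC5 were in neither list. No gene of the 9 was listed in 1 library alone. So both classical and non-classical heavy chains are found among the listed genes (HLA-C, HLA-E) and among the unlisted ones (HLA-B, HLA-F), while the light chain and all 3 genes of the peptide pump and its tapasin bridge were listed. The lists hold names without levels, and there was 1 library per siRNA, so no test across replicates was possible and a shared call does not show an equal H3K4me3 level.

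**Figure D1:**
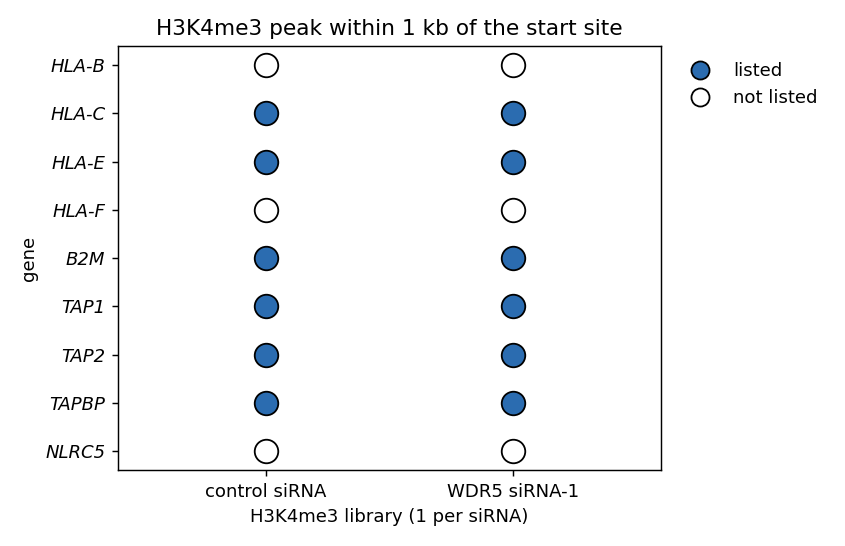
Peak calls of the 9 MHC class I genes (vertical axis) in the control siRNA and WDR5 siRNA-1 H3K4me3 libraries (horizontal axis, 1 library each); a filled circle is a gene listed with a peak within 1 kb of its start site. The 6 listed genes are filled in both columns and HLA-B, HLA-F and NLRC5 are open in both.

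All 6 listed genes had a peak call after both siRNAs, so 0 were control-only (0% of those with a control peak, exact Clopper-Pearson 95% interval 0 to 45.9%). Over all 13618 control names, 13.5% were control-only, a share that lies well inside that interval, so the count of 0 does not set these genes apart. With 6 of 9 listed in the control library, the genes were also near the background for any coding gene. Of 20056 RefSeq protein-coding symbols, 60.5% were listed with control siRNA and 53.3% with WDR5 siRNA. Names listed only with WDR5 siRNA made up 0.817% of that library's names and included none of the 9. These intervals treat genes as independent draws and cover no library error.

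Among the promoters aligned, those of HLA-B, HLA-C and HLA-F were the most alike in sequence and had different calls. HLA-E had no window. In a global alignment of the 250-base windows, HLA-B and HLA-C were identical in 226 of 254 columns (89%). HLA-F matched HLA-B in 80.4% of columns and HLA-C in 78.7%. The other pairs among the 8 windows, from 7 genes, were 47.3 to 51.9% identical, including TAP1 against its further start. HLA-C was listed in both libraries, whereas HLA-B, its closest relative in this comparison, was listed in neither. The sources used here do not say how reads that fit more than one HLA gene were placed, and HLA genes vary between haplotypes, so an HLA call carries more doubt than one for B2M or TAPBP.

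HLA-B and HLA-C shared the order NF-kappaB consensus, GAAGTGAAA, TGACGC, and their ATTGG matches differed in number and in part in place. In HLA-C the NF-kappaB consensus lay at -172 to -163 from the start, GAAGTGAAA at -151 to -143 and TGACGC at -105 to -100. In HLA-B overlapping NF-kappaB matches ran from -177 to -167, with GAAGTGAAA at -155 to -147 and TGACGC at -106 to -101. HLA-F held neither the NF-kappaB consensus nor TGACGC, but had GAAANNGAAA at -156 to -147. An ATTGG match lay at -81 to -77 in HLA-B, -80 to -76 in HLA-C and -82 to -78 in HLA-F, so these letters stood within 2 bases of each other in the 3 genes. HLA-C had 4 ATTGG matches on either strand, with 2 that had no counterpart in HLA-B at -192 to -188 and -95 to -91. HLA-B had 3, of which the one at -74 to -70 had none in HLA-C. A match describes letters and does not show that a factor binds.

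B2M, TAP1, TAP2 and TAPBP, all listed in both libraries, each held the tandem GAAANNGAAA. It spanned -144 to -129 in B2M, -134 to -119 in TAP1, -58 to -49 in TAP2 and -20 to -5 in TAPBP, as overlapping matches in all but TAP2. The NF-kappaB consensus was found in B2M (-125 to -116), TAP1 (-72 to -63) and TAPBP (-56 to -47). No TGACGC match was found in the B2M, TAP1 or TAPBP windows, and TAP2 had one at -35 to -30. The E-box CACGTG, a site that MYC-family proteins can bind, was in none of the 8 windows, from 7 genes, that were searched.

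Over the 35114 promoter windows of the table, GAAANNGAAA was in 3.02%, the NF-kappaB consensus in 5.21%, TGACGC in 7.67%, ATTGG in 32% and CACGTG in 6.35%. GAAGTGAAA was in 0.439%, and these letters were chosen after the HLA windows had been read. The same motifs were found in listed and unlisted genes. HLA-B held 4 of the 5 motifs marked and had no peak call, and TAP2 held 2 of the 5 and was called in both libraries.

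**Figure D2:**
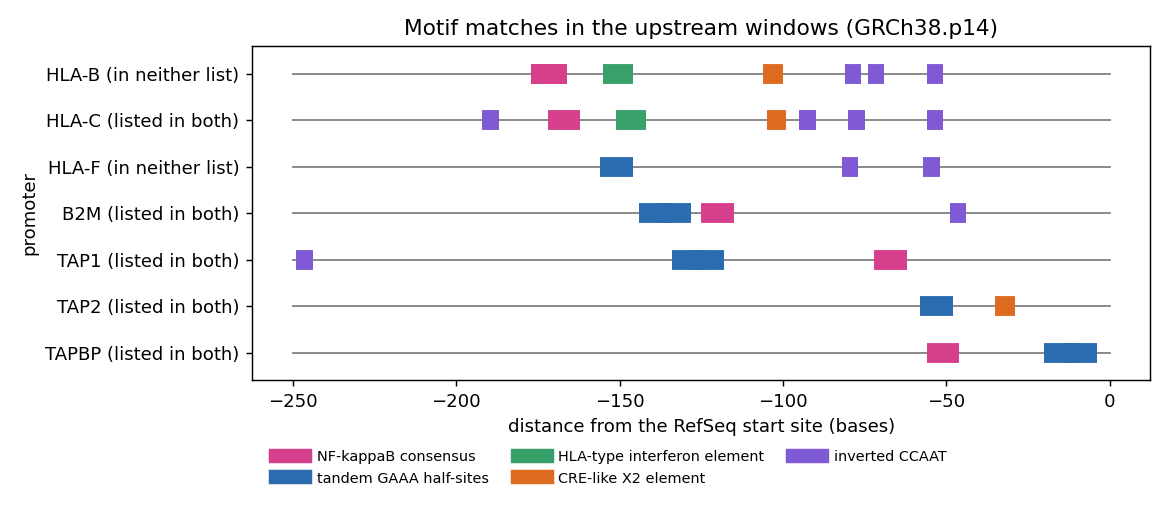
Matches to 5 motifs (colours) along the 250 bases upstream of the RefSeq start of 7 genes; the horizontal axis is the distance from the start in bases and each grey line is 1 promoter, named with its peak call. HLA-B and HLA-C share the order of the NF-kappaB, GAAGTGAAA and TGACGC matches but differ in ATTGG matches, and of the pair HLA-C was listed; the blue tandem GAAA half-sites appear in HLA-F, B2M, TAP1, TAP2 and TAPBP.

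Of the 9 genes, B2M and TAP1 were in the promoter tables, both as N-Myc-non-binding. B2M had its start at chromosome 15, position 45003685 (hg19), and TAP1 at chromosome 6, position 32821748. N-Myc-binding promoters made up 33.9% of the 9585 promoters in the tables, and 2 promoters are too few to set beside that share. The remaining 7 genes were in neither table, as were many others, since 58.1% of all names in the files were in a table. For these 7 the N-Myc class is therefore unknown here.

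The promoter tables are titled as H3K4me3 quantification but hold no values. The non-binding table is ordered in a way its header does not explain, so a row is given as a place only. The median place was 23.9% for promoters listed in both libraries, 51.5% for control-only ones and 78.4% for those in neither list. Place and peak call may therefore not be independent descriptions. B2M held row 487 of 6331 (7.69% of the table length) and TAP1 row 1797 (28.4%). Among the 3019 non-binding promoters listed in both libraries, the middle of the distribution (25th to 75th percentile) ran from 11.9 to 36% with a median of 23.9%. B2M thus came earlier than that range and TAP1 lay within it. The rows next to B2M were C1GALT1, CHST3, KLHL24 and TMEM175, and those next to TAP1 were CSAD, DOK6, TMEM5 and PDLIM7, all listed in both libraries.

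**Figure D3:**
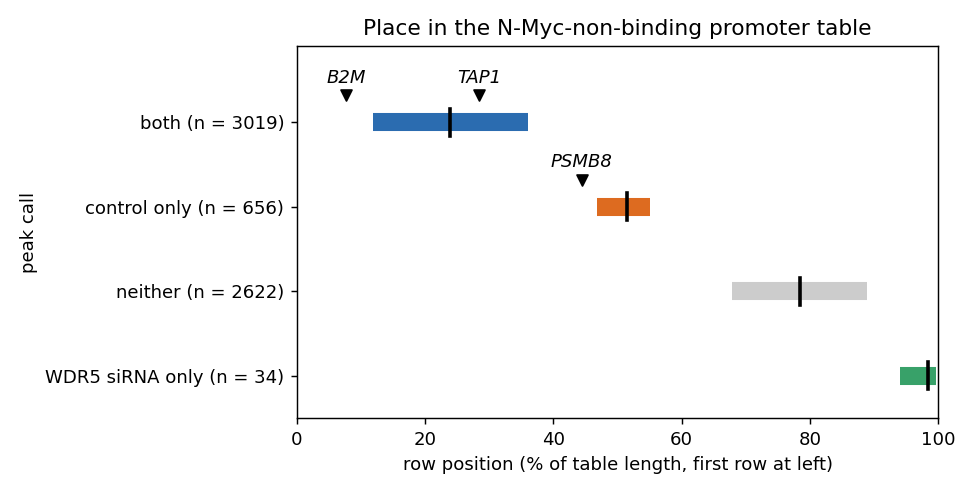
Row position in the N-Myc-non-binding promoter table (horizontal axis, percent of table length) by peak call (vertical axis, n promoters); bars run from the 25th to the 75th percentile, black lines are medians and triangles are single genes. B2M at 7.69% and TAP1 at 28.4% belong to the promoters listed in both libraries, and PSMB8 at 44.4% to those listed with control siRNA only.

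TAP1 stands in a short block with genes of the same pathway, and the calls in that block were not uniform. In the control list TAP2 was followed by PSMB8, LOC100507463 (PSMB8-AS1 in RefSeq, matched by gene ID), TAP1 and PSMB9. In the WDR5 siRNA list the order ran TAP2, TAP1, PSMB9. PSMB8 and PSMB9 encode catalytic subunits of the immunoproteasome, which cuts many class I peptides. PSMB8 and its antisense name were thus control-only, while both TAP genes and PSMB9 were listed in both. The PSMB8 start (chromosome 6, position 32811816, hg19) lay 9932 bp from the TAP1 start. PSMB8 was N-Myc-non-binding and held row 2814 (44.4%), later than TAP1. The control-only promoters of that table ran from 46.8 to 55.1% (25th to 75th percentile), later than those listed in both, and PSMB8 came before that range. A control-only call was made for 17.9% of non-binding promoters with a control peak.

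Some starts lie so close together that a single peak could be listed for 2 genes. On GRCh38.p14 the RefSeq starts of TAP1 and PSMB9 lie 488 bp apart on opposite strands, and a PATL2 start lies 127 bp from that of B2M, also on the opposite strand. A peak between such starts lies within 1 kb of both. PSMB9 and PATL2 had the same call as their partner, listed in both libraries. The lists give no peak position, so whether a pair shared a peak was not tested.

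The 5 listed chromosome 6 genes (HLA-E, HLA-C, TAP2, TAP1 and TAPBP) fall in one stretch of the control list, which follows genome order there. Positions rose in all 18 steps between the 19 names of the stretch that have one in the promoter tables. From HLA-E to TAPBP the control list held 76 names, of which 65 were also listed with WDR5 siRNA and 11 were not (14.5%, interval 7.45 to 24.4%), close to the 13.5% of all control names. No name was added in the WDR5 siRNA list. The 11 were MDC1, VARS2, CCHCR1, TCF19, MICB, LY6G5C, PSMB8, LOC100507463, COL11A2, HCG25 and B3GALT4. HLA-C was flanked in the control list by HCG27 and by MICB, so a gene directly after it was missing with WDR5 siRNA while HLA-C itself was not.

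**Figure D4:**
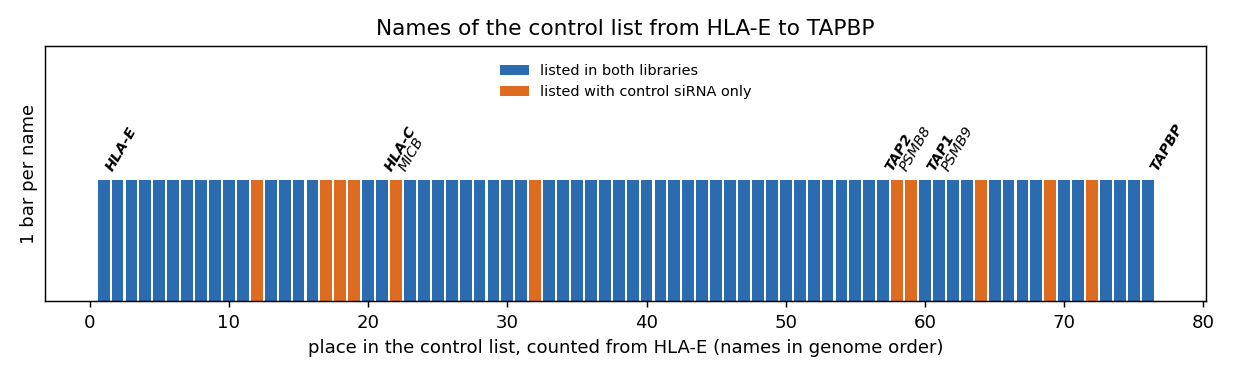
The 76 distinct names of the control list from HLA-E to TAPBP in list order (horizontal axis, place counted from HLA-E), each drawn as a bar of equal height coloured by call; bold names are the MHC class I genes studied. The 5 bold names are blue (listed in both), and 11 orange bars, among them MICB beside HLA-C and PSMB8 between TAP2 and TAP1, are control-only.

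The unlisted genes sat among listed ones. By RefSeq gene order, the nearest listed names around HLA-B were HLA-C (both libraries) and MICB (control only). Those around HLA-F were GABBR1 (both) and HLA-H (control only). NLRC5, on chromosome 16, lay between HERPUD1 and CPNE2, both listed in both libraries. A missing name is a missing call, or a gene that the authors named otherwise. No unambiguous RefSeq synonym of any of the 9 was in the files.

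Among 18 other class I heavy chains and relatives, 5 were listed in both libraries, 5 were control-only and 8 were in neither. Among those listed in both were the pseudogene HLA-L, ULBP1, ULBP2 and FCGRT, the neonatal Fc receptor. The control-only names were the pseudogene HLA-H, MICB, ULBP3, RAET1G and PROCR, the endothelial protein C receptor. In neither list were HLA-G, HLA-J, HFE, MICA, MR1, CD1D, RAET1E and AZGP1. With control siRNA 10 of the 18 were listed, beside 60.5% of RefSeq protein-coding symbols. The control-only share was 50% of 10 names with a control peak (interval 18.7 to 81.3%), beside 13.5% of all control names. It rests on 10 names, several of them near-identical or neighbouring genes, and on 1 library per siRNA.

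Of 17 genes that fold, load and trim class I peptides, 14 were listed in both libraries, among them B4GALT1, BCAP31, BLMH, CALR, CANX and ERAP1. Calreticulin and calnexin, the products of CALR and CANX, are chaperones of the heavy chain, and ERAP1 trims peptides in the endoplasmic reticulum. The control-only gene was TAPBPL, which encodes the tapasin relative TAPBPR (6.67% of 15 with a control peak, interval 0.169 to 31.9%). ERAP2, the sister enzyme of ERAP1, and LNPEP were in neither list. The interval includes the 13.5% of all control names. With control siRNA 15 of the 17 were listed, beside 60.5% of RefSeq protein-coding symbols. Of the 12 in the promoter tables, 11 were N-Myc-binding, beside 33.9% of all promoters in the tables. That share also counts promoters without a peak call. Among promoters listed in both libraries, as all of the 12 but LNPEP were, 2958 were N-Myc-binding and 3019 non-binding. The difference was not tested.

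In the immunoproteasome list, 6 of 7 genes were listed in both libraries, namely POMP, PSMB10, PSMB9, PSME1, PSME2 and PSME3. PSMB8 was the control-only one (14.3%, interval 0.361 to 57.9%). All 15 regulators of class I promoters in the list were listed in both libraries (0% control-only, interval 0 to 21.8%). Both intervals include the 13.5% of all control names, so neither control-only count sets its list apart. All 7 and all 15 genes had a control peak, beside 60.5% of RefSeq protein-coding symbols listed with control siRNA. With WDR5 siRNA the share of all symbols was 53.3%. These differences were not tested. The regulators include RFX5, RFXAP and RFXANK, which bind the X element, and NFYA, NFYB and NFYC, which bind the Y element. RELA and NFKB1, subunits of NF-kappaB, IRF1 and IRF2, and CREB1 and ATF1 were also among them. The X and Y element factors of the list, the kind through which NLRC5 acts, were thus listed in both libraries, and NLRC5 itself in neither.

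The interferon signalling list (labelled interferon-gamma) had 9 of 13 genes listed in both. Among them were the receptor genes IFNGR1 and IFNGR2 and the kinases JAK1 and JAK2. IRF9, a DNA-binding subunit of an interferon-activated complex, IRF7 and SOCS3, a feedback inhibitor of cytokine signalling, were control-only (25% of 12, interval 5.49 to 57.2%). IRF8 was in neither list. The interval includes the 13.5% of all control names. With control siRNA 12 of the 13 were listed, beside 60.5% of RefSeq protein-coding symbols.

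**Figure D5:**
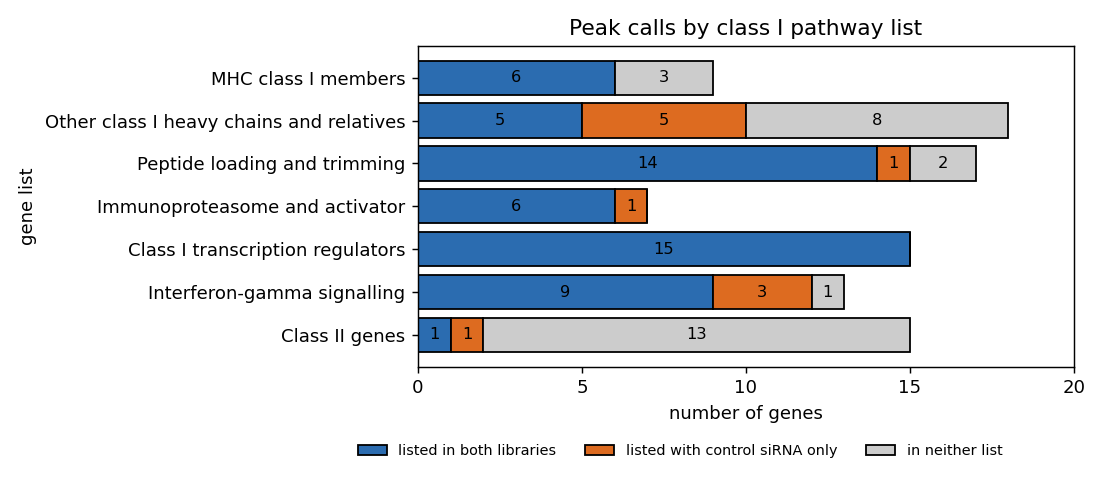
Number of genes (horizontal axis) listed in both libraries, with control siRNA only or in neither list, for the 9 MHC class I genes and 6 related gene lists (vertical axis). The 9 genes and the class I transcription regulators have no control-only member, and 13 of 15 class II genes are in neither list.

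Of 15 class II genes, which serve antigen presenting cells, 2 were listed with control siRNA, beside 60.5% of RefSeq protein-coding symbols. The other 13 were in neither list, among them CIITA, the class II transactivator and relative of NLRC5, and HLA-DRA. CD74, the invariant chain, was control-only, and IFI30, a lysosomal thiol reductase, was listed in both. For the marker lists the same 60.5% is the background share listed with control siRNA. For control-only calls the background is 13.5% of all control names. The class II, blood, epithelial and fibroblast lists held 1 to 3 names with a control peak each, too few to set beside it. Against the labelled cell type, 10 of 12 adrenergic neuroblastoma markers were listed in both, among them HAND2, ISL1 and GATA3. TH and DBH were control-only (16.7% of 12, interval 2.09 to 48.4%), a share near the 13.5% of all control names. Of 12 markers of blood and antigen presenting cells, 11 were in neither list, including PTPRC, CD14 and SPI1, and CD74 was control-only. Of 4 epithelial markers KRT18 was control-only and 3 were in neither. Among 6 fibroblast and endothelial markers THY1 was listed in both, COL1A1 and PDGFRB were control-only and 3 were in neither.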

How the data were processed

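The authors deposited 3 text tables. Per the file headers, 1 lists gene names with an H3K4me3 peak within 1 kb of a start site, per library, and 2 give a start site and a gene name per promoter. No deposited column holds a level, score or read number, so the depth is unknown. Per the submitters' processing notes, BWA 0.7.12 and bedtools were used with hg19. For the peak caller, its control and the rule for N-Myc binding, nothing is given in the sources used here. The plan to give each level, with no test, could not be followed.

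Names were reduced to distinct names and classed as listed in both libraries, control siRNA only, WDR5 siRNA only or neither. Shares carry exact Clopper-Pearson 95% intervals. The genes and lists were chosen with earlier results of these data known. All 9 genes are named. In other lists, control-only and unlisted genes are named, with examples listed in both; some items are not reported here. RefSeq (GRCh38.p14) supplied names, gene order and promoters. Windows were aligned globally with biopython 1.88 (match 1, mismatch -1, gap opening -2, gap extension -0.5). Call and motif functions were tested on simulated data. Python 3.11.15, pandas 2.3.3, scipy 1.17.1 and matplotlib 3.10.9 were used.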

Additional observations from a re-analysis of the deposited data

How the results depend on the processing

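No paired analysis was possible because each group holds 1 library, and for the same reason there was no replicate to leave out. Looking up synonyms left 6 of 9 genes listed in both libraries. The control-only share was 0% of 6 genes, so settings that only drop genes had to give 0% again and could not test it. They kept names on 1 row only (all 6 were) or dropped genes with another start within 1 kb in the deposited tables (there were none). Others dropped the chromosome 6 genes (1 gene left) or, chosen after the data were seen, the HLA genes (4 left). Together with the other class I pathway lists the control-only share was 18.4% of 38 names (interval 7.74 to 34.3%). The share over all control names was 13.5% by rows and 13% without accession-style, LOC and numeric names. Counted only among promoters listed in both libraries, the place of B2M in the non-binding table moved from 7.69 to 16.1% and that of TAP1 from 28.4 to 59.4%, because the later rows hold the promoters without such a call. Depth is unknown, so an unlisted gene may carry H3K4me3 below the authors' threshold.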

Other observations

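Ligands of NKG2D, an activating receptor of natural killer cells, are relatives of class I heavy chains that do not pair with B2M. Grouped after the calls had been seen, 2 of 7 (ULBP1 and ULBP2) were listed in both libraries, 3 (MICB, ULBP3 and RAET1G) were control-only and 2 (MICA and RAET1E) were in neither list. The control-only share was 60% of 5 names (interval 14.7 to 94.7%), beside 13.5% of all control names. The grouping followed the calls and the interval does not allow for that, so the share is a description only.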
